A study of Sus scrofa with 8 samples.

Results

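Osteoclasts are the bone-resorbing giant cells that form when precursors of the macrophage lineage fuse. The cytokines CSF1 and RANKL drive their precursors through the receptors CSF1R and RANK, immunoreceptor adaptors add a calcium signal, and the transcription factor NFATC1 then switches on genes for fusion, attachment, acid secretion and matrix digestion. Macrophages that fuse into multinucleated giant cells, or that digest lipid and debris, use part of the same gene set, and in the liver the resident macrophages are the Kupffer cells.

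Here 8 genes known from osteoclasts and giant cells were followed in pig liver RNA: ACP5, DCSTAMP, OCSTAMP, ATP6V0D2, CTSK, MMP9, NFATC1 and ITGB3. They were taken by symbol and all 8 were listed among 18103 genes, of which 13175, including 7 of the 8, had at least 0.3 FPKM (fragments scaled to transcript length in kilobases and to the mapped fragments of the library) in at least 4 of the 8 libraries and entered the test. The genes were picked because of how steatosis and initial state differed in these same libraries, so that difference is described below for the members without a test.

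The livers came from male Landrace x Large White pigs. The initial state group was healthy and 4 months old, and its liver pieces were biopsies taken by laparotomy. The steatosis group was 6 months old and had eaten a steatotic diet for 2 months, rich in saturated fat, fructose, cholesterol and cholate, deficient in methionine and low in choline. Its liver was taken after euthanasia. The study's methods describe the same animals at both times. Each group had 4 libraries, and each library was a pool of equal amounts of RNA from 2 pigs, so the values of single animals were averaged and the spread is that between pools. Diet, age and the way of sampling changed together and cannot be told apart.

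From the steps between low FPKM values, the depth was estimated at 18900000 to 20900000 fragments a library. Pool 1 of the initial state stood apart, with summed FPKM of 2554 for 6 skeletal muscle markers and 1490 for 5 stomach mucosa markers, against at most 18.8 and 28.3 in the other 7 libraries. Hepatocyte markers were high in all 8 libraries, with summed FPKM between 50138 and 88615 over 5 genes. The median log2 fold change of all genes tested was 0.25.

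The resorption genes were far higher in steatosis than in the initial state, and the regulator NFATC1 was not. Mean ACP5 was 12.1 ± 1.41 FPKM in the initial pools and 189 ± 55.6 FPKM in the steatosis pools, and mean MMP9 0.47 ± 0.0383 and 7.37 ± 0.977 FPKM (SD, n = 4), while CTSK and ITGB3 were several times higher and DCSTAMP and ATP6V0D2 appeared where the initial pools had nearly no fragments. Of the 7 members tested, 6 passed both limits upward in limma (adjusted p below 0.01, log2 fold change above 1), against 6.01% of all genes tested. In 7 of the 8 members every steatosis pool lay above every initial pool, against 29.6% of all genes tested, and in none did every pool lie below, against 2.53%. Since this contrast chose the genes, these counts are no result about them.

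**Figure D1:**
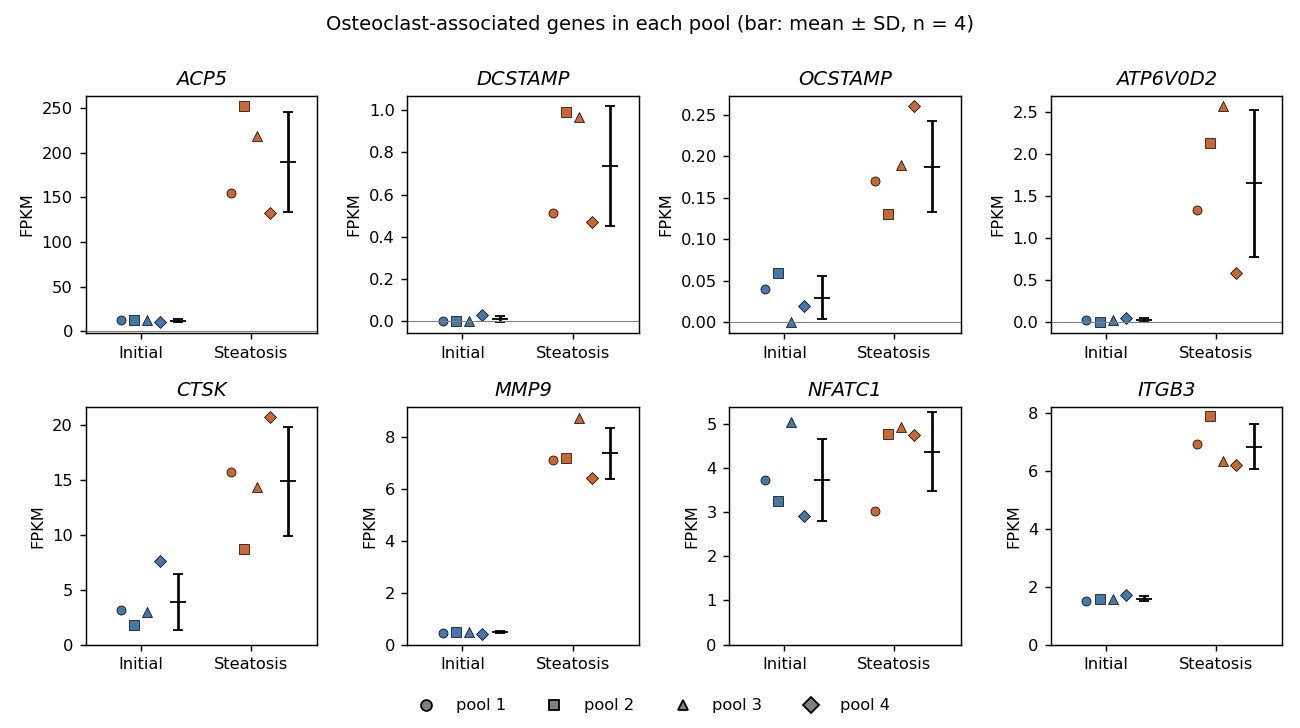
FPKM (vertical axes, 1 linear scale a gene, each including 0) of the 8 member genes in the 4 initial state pools (blue) and the 4 steatosis pools (orange), with the mean and SD of each group (n = 4) as a black bar and the pool number as marker shape. The groups were apart for every gene except NFATC1, whose 4 steatosis pools all lay within the range of the initial pools.

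Fusion of precursors requires DC-STAMP and OC-STAMP, membrane proteins with several transmembrane segments. DCSTAMP (chromosome 4, 32912320 to 32928323, Sscrofa11.1) was listed at 0, 0, 0 and 0.03 FPKM in initial pools 1 to 4, and at 0.51, 0.99, 0.97 and 0.47 FPKM in steatosis pools 1 to 4. These levels correspond to about 2 fragments over the initial pools, all of them in pool 4, and to about 203 over the steatosis pools, from 32 to 69 a pool. The ratio was 102 with a 95% exact interval of 27.8 to 846, which covers counting error only, and every steatosis pool was above the 0.045 FPKM that 3 fragments would give. Its fitted log2 fold change of 2.90 (SE 0.30) was set by the pseudocount, since it ran from 0.77 with a pseudocount of 1 to 5.64 with one of 0.01. The gene passed the filter on low values only through the steatosis pools, so among genes tested it had to differ.

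OCSTAMP (chromosome 17, 48703937 to 48711690) was the lowest member in steatosis and did not enter the test. Initial pools 1 to 4 were at 0.04, 0.06, 0 and 0.02 FPKM, and steatosis pools 1 to 4 at 0.17, 0.13, 0.19 and 0.26 FPKM. All 4 steatosis pools were higher, but they rested on only 6 to 12 fragments each, about 35 in all against about 6 in the initial pools. The ratio was 5.85 with a counting interval of 2.43 to 17.0. The initial values lay at or under the 0.066 FPKM of 3 fragments, so how far OCSTAMP differed in any single pool was hardly measurable at this depth.

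Resorption needs a proton pump, and ATP6V0D2 encodes the d2 subunit of the membrane sector of the vacuolar proton pump, the form known from osteoclasts and macrophages. ATP6V0D2 (chromosome 4, 50694188 to 50749373) was at 0.03, 0, 0.03 and 0.05 FPKM before the diet and at 1.34, 2.13, 2.57 and 0.59 FPKM after it, in pools 1 to 4. About 4 initial fragments stood against about 261 in steatosis, a ratio of 65.4 with a counting interval of 25.2 to 242. Of the 8 members it varied most between steatosis pools, with a coefficient of variation of 52.8%, and pool 3 was 4.36 times pool 4. Like DCSTAMP it passed the filter only through steatosis, and its fitted log2 fold change of 3.63 (SE 0.40) ranged from 1.31 to 5.54 over the alternatives.

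The ubiquitous d1 subunit moved little. ATP6V0D1 was at 35.8 ± 2.21 FPKM in the initial pools and 37.3 ± 1.72 FPKM in the steatosis pools (SD, n = 4), a difference of 0.06 on the log2 scale (adjusted p 0.616, limma). ATP6V0D2 was therefore 0.0769% ± 0.055 of the summed FPKM of both d subunits in the initial pools and 4.22% ± 2.22 in the steatosis pools (SD, n = 4), so d1 remained the main d subunit by far. TCIRG1, the a3 subunit of the pump that osteoclasts place at the resorbing membrane, went from 3.08 ± 0.513 to 6.19 ± 0.217 FPKM (SD, n = 4). The difference of 1.0 on the log2 scale (SE 0.13, adjusted p 0.000577, limma) was just under the fold limit, and in 5 of 15 alternatives it passed that limit.

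The digesting enzymes were the most abundant members in steatosis, while in the initial state MMP9 was below NFATC1 and ITGB3. ACP5, the tartrate-resistant acid phosphatase used as a stain for osteoclasts, lies at chromosome 2, 70206159 to 70209855. The initial pools had 13.05, 12.8, 12.38 and 9.97 FPKM and the steatosis pools 154.44, 251.79, 219.16 and 132.16 FPKM. The lowest steatosis pool, pool 4, was still far above every initial pool. The log2 fold change was 3.92 (SE 0.20), between 3.65 and 4.08 over the alternatives.

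MMP9, the gelatinase B that degrades denatured collagen and type IV collagen, lies at chromosome 17, 48179690 to 48186782. The initial pools had 0.46, 0.5, 0.5 and 0.42 FPKM and the steatosis pools 7.1, 7.2, 8.74 and 6.43 FPKM. Its pools were tight within both groups, with a coefficient of variation of 8.15% in the initial state and 13.3% in steatosis. The ratio of group means was 15.7, the same as that of ACP5. The log2 fold change was 3.71 (SE 0.14), and 2.50 with a pseudocount of 1.

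CTSK, the cathepsin that cuts type I collagen in the resorption pit, lies at chromosome 4, 98389459 to 98404969. The initial pools had 3.16, 1.82, 2.96 and 7.59 FPKM and the steatosis pools 15.68, 8.67, 14.37 and 20.69 FPKM. The groups came close, since initial pool 4 at 7.59 FPKM was only slightly under steatosis pool 2 at 8.67 FPKM. The log2 fold change was 2.04 (SE 0.39). CTSK was the one member whose call rested on single pools, for it was no longer called without initial pool 1, 2 or 3 or without steatosis pool 1, 3 or 4, although its log2 fold change over all alternatives stayed between 1.75 and 2.42.

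Attachment to bone uses the integrin αvβ3, of which ITGB3 encodes the β3 chain. ITGB3 (chromosome 12, 16694466 to 16752228) was at 1.49, 1.59, 1.59 and 1.7 FPKM before the diet and at 6.96, 7.91, 6.34 and 6.2 FPKM after it. The groups were far apart. The fitted difference was 2.03 on the log2 scale (SE 0.12), and ITGB3 had the smallest coefficient of variation of the 8 members within both groups, 5.39% and 11.4%. The αv chain ITGAV went the other way without passing the test, from 4.19 to 3.56 FPKM (log2 fold change -0.23, adjusted p 0.331, limma). The β3 chain made up 28.0% ± 4.61 of the summed FPKM of both chains in the initial pools and 65.9% ± 3.62 in the steatosis pools (SD, n = 4). The platelet partner of β3, ITGA2B, was at 2.80 FPKM in the initial state and 2.60 FPKM in steatosis.

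NFATC1, the transcription factor at the centre of osteoclast formation, lies at chromosome 1, 145940099 to 146002897. The initial pools had 3.74, 3.26, 5.04 and 2.91 FPKM and the steatosis pools 3.03, 4.77, 4.93 and 4.75 FPKM. All 4 steatosis pools lay within the range of the initial pools. The log2 fold change was 0.22 with a 95% interval of -0.23 to 0.68, which is near the 0.25 of the median gene, and its sign was not fixed, since it ran from -0.04 to 0.39 over the alternatives.

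The order of levels was compared per length, as FPKM. In the initial state it was ACP5, CTSK, NFATC1, ITGB3 and MMP9, followed by OCSTAMP, ATP6V0D2 and DCSTAMP near 0. In steatosis it was ACP5, CTSK, MMP9, ITGB3, NFATC1, ATP6V0D2, DCSTAMP and OCSTAMP. Neighbours whose pools overlapped were CTSK and NFATC1 and the last 3 genes in the initial state, and in steatosis CTSK and MMP9, MMP9 and ITGB3, and ATP6V0D2 and DCSTAMP. MMP9 and NFATC1 exchanged places with no overlap between their pools in either group, and the 2 most abundant genes were the same. ACP5 stood alone, at 12.8 times the next gene in steatosis and 3.1 times in the initial state.

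Among the steatosis pools the members did not share 1 order. ACP5, DCSTAMP, ATP6V0D2 and MMP9 were highest in pools 2 and 3 and lowest in pool 4. CD68, the lysosomal glycoprotein of macrophages, had the order of ACP5 and DCSTAMP, with 36.82, 63.78, 58.12 and 29.33 FPKM in pools 1 to 4. CTSK had the opposite arrangement, highest in pool 4 and lowest in pool 2, and COL1A1, a type I collagen chain made by fibroblasts and activated stellate cells, had the same order with 44.18, 13.72, 16.7 and 75.22 FPKM. CTSK is also known from fibroblasts, and the summed FPKM of 10 fibroblast and stellate cell markers was 67.5 to 269 in the initial pools and 124 to 325 in the steatosis pools. In the initial pools CTSK was highest in pool 4 and COL1A1 in pool 1, so the shared order held in steatosis only. With 4 pools these orders are a description, and the part of fibroblasts in the level of CTSK was not tested.

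**Figure D2:**
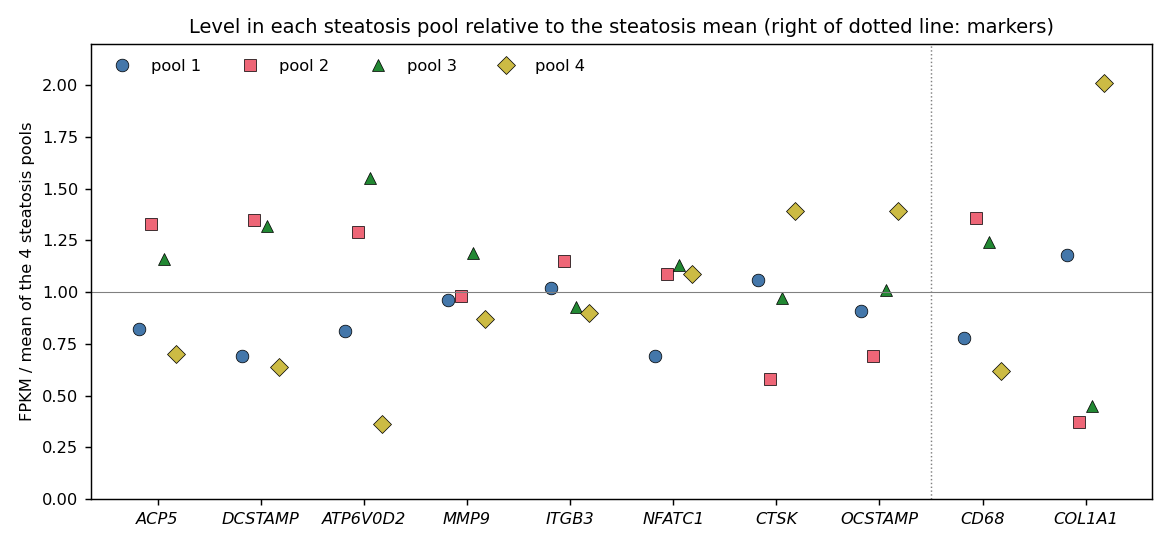
FPKM in each steatosis pool divided by the mean of the 4 steatosis pools (vertical axis, no unit) for the 8 members and, right of the dotted line, for CD68 and COL1A1, with 1 marker a pool. ACP5, DCSTAMP, ATP6V0D2 and CD68 had pools 2 and 3 above their mean and pool 4 lowest, at 0.36 for ATP6V0D2, whereas CTSK, OCSTAMP and COL1A1 had pool 4 highest, at 1.39, 1.39 and 2.01.

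Macrophage markers differed between the groups too, so the members were set against them. Of 13 macrophage markers 3 rose in limma, namely MARCO, a scavenger receptor (log2 fold change 3.33), MSR1, another scavenger receptor (2.35), and CD68 (2.01), with adjusted p values of 6.19e-05, 1.09e-05 and 0.00076. The other 10 did not pass. VSIG4 at 0.94, AIF1 at 0.90 and ADGRE1 at 0.83, named after their values were seen, missed the fold limit alone (adjusted p 0.00205, 0.00101 and 0.00723), as did C1QB, the most abundant of the list, at 0.64 (adjusted p 0.00271), while C1QA was at 0.07 and CD5L at -0.34. In 8 of the 13 every steatosis pool lay above every initial pool, against 29.6% of all genes tested. The summed FPKM of the 13 was 902 to 1261 in the initial pools and 1357 to 1551 in the steatosis pools, and none was at 0 in any library. In bulk RNA, fewer or more cells of a type and less or more RNA per cell cannot be told apart.

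The mean log2 level of the 13 markers was 0.94 higher in steatosis. Relative to that mean, ACP5 was still higher by 2.98 on the log2 scale, MMP9 by 2.77, ATP6V0D2 by 2.69, DCSTAMP by 1.96, CTSK by 1.10 and ITGB3 by 1.09. The pools of the groups remained apart for ACP5, MMP9, ATP6V0D2, DCSTAMP and ITGB3. They overlapped for CTSK, for OCSTAMP with 0.21 and for NFATC1 with -0.71. The values of DCSTAMP, ATP6V0D2 and OCSTAMP were set by the pseudocount of 0.1, since their initial pools were at most at 0.06 FPKM. With other pseudocounts the fitted log2 fold changes ran from 0.77 to 5.64 for DCSTAMP and from 1.31 to 5.54 for ATP6V0D2. The overlap of OCSTAMP therefore says little. The contrast chose the members, so these differences are a description. The share of all genes that stayed apart in this way was not computed. The log2 fold changes of the 13 markers themselves ran from -0.34 to 3.33. CTSK at 2.04 and ITGB3 at 2.03 were near CD68 at 2.01 and under MSR1 at 2.35. Set against CD68 alone, ACP5 made up 52.0% ± 8.04 of the summed FPKM of the pair in the initial pools and 80.4% ± 1.21 in the steatosis pools (SD, n = 4). CD68 here is the row with that symbol. A second locus, without a gene symbol and likened in the deposited table to macrosialin, the CD68 protein, was at 0.27, 0.51, 1.29 and 0.07 FPKM before the diet and at 12.78, 19.69, 26.94 and 5.02 FPKM after it. The study's list of selected transcripts gives CD68, as macrosialin, at levels near those of this second locus. Set against that locus, the share of ACP5 was 96.0% ± 3.85 in the initial pools and 92.6% ± 2.98 in the steatosis pools (SD, n = 4). Whether the share of ACP5 was higher in steatosis therefore depended on the row taken.

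**Figure D3:**
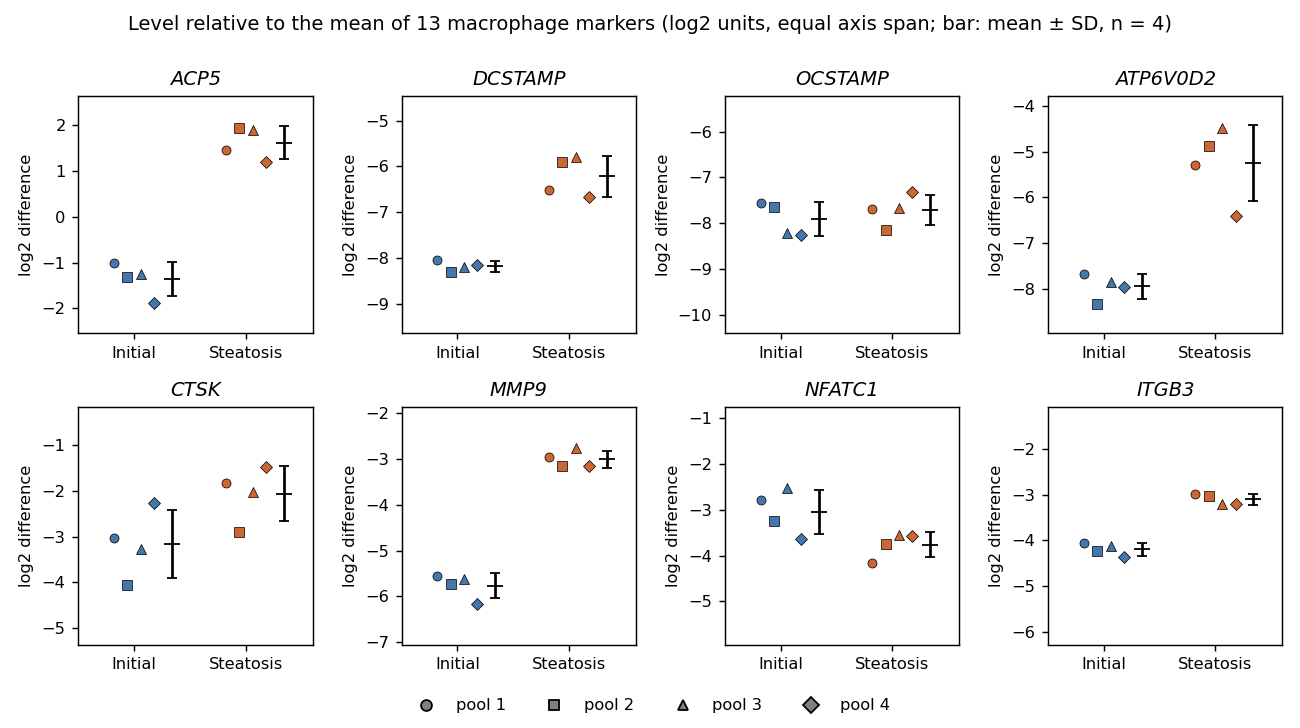
log2(FPKM + 0.1) of each member minus the mean log2(FPKM + 0.1) of the 13 macrophage markers in the same library (vertical axes, log2 units, all spanning the same distance), for the initial state pools (blue) and the steatosis pools (orange), with mean and SD (n = 4) in black and the pool number as marker shape. ACP5, MMP9 and ATP6V0D2 were between 2.69 and 2.98 higher in steatosis, while CTSK, OCSTAMP and NFATC1 overlapped. The values of DCSTAMP, ATP6V0D2 and OCSTAMP were set by the pseudocount of 0.1.

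Markers of other cells that could carry these transcripts were read as well. Neutrophils store MMP9 in granules, and their 9 markers summed to 5.88 to 12.8 FPKM in the initial pools and 9.43 to 15.0 FPKM in the steatosis pools. Of 5 neutrophil markers tested only CSF3R rose (log2 fold change 1.49, adjusted p 0.00228, limma), while S100A8 was at 1.67 and 1.78 FPKM. S100A12, the most abundant in the initial state, was at 3.04 and 3.19 FPKM, and CSF3R, the most abundant in steatosis, at 1.44 and 4.07 FPKM. MPO, too low for the filter, was at 0.015 and 0.188 FPKM with all steatosis pools higher, and was called without the filter, and ELANE was at 0.0425 and 0.193 FPKM with overlapping pools. Platelets carry ITGB3, and their 8 markers summed to 2.65 to 4.99 FPKM in the initial pools and 3.54 to 3.92 FPKM in the steatosis pools, with GP1BB at 0 in 6 libraries. Neither of the 2 platelet markers tested passed. ITGA2B had a log2 fold change of -0.06 (adjusted p 0.821, limma) and GP9 of 0.72 (adjusted p 0.0397). Of the 3 bone markers found, the osteoblast factor SP7 had means of 0.0325 and 0.04 FPKM and the bone matrix gene BGLAP was at 0 in 4 libraries, whereas DMP1, a bone and tooth matrix gene, was at 3.04 and 4.50 FPKM. The part of neutrophils and platelets in the members' levels was not tested.

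In the remaining lists few markers passed, all in limma. Of 10 fibroblast and stellate cell markers tested only LRAT, the retinol-esterifying enzyme of stellate cells, passed (log2 fold change 1.25, adjusted p 0.000773). The 10 ran down to -1.67 for LUM, and 6 were positive. Of 6 T cell markers tested only CD4 passed (1.12, adjusted p 0.00099), with means of 8.21 and 18.1 FPKM. The lowest of the 6 was at -0.03. The B cell marker MS4A1 fell by 1.23 on the log2 scale (adjusted p 0.00937). The MS4A1 call was lost without any 1 library other than initial pool 1, and also with a pseudocount of 1, without the filter and with a filter of 1 FPKM. The B and plasma cell list summed to 17.6 to 46.6 FPKM in the initial pools and 11.6 to 16.0 FPKM in the steatosis pools, with JCHAIN the most abundant. Over all 8 libraries, the most abundant markers of the other lists were ITGA2B for platelets, XCR1 for dendritic cells and CD4 for T cells. They were COL3A1 for fibroblasts and stellate cells, PECAM1 for endothelium, ALB for hepatocytes, ACTA1 for muscle and TFF1 for stomach mucosa. No marker of any list was at 0 in all 8 libraries. None of the dendritic cell, endothelial, hepatocyte, muscle or stomach markers tested passed. Only 1 of 6 muscle and 1 of 5 stomach markers entered the test. Endothelial markers summed to 56.2 to 63.4 FPKM and 75.0 to 97.6 FPKM, T cell markers to 26.1 to 45.6 FPKM and 45.1 to 48.4 FPKM, and dendritic cell markers to 2.12 to 3.56 FPKM and 2.66 to 4.39 FPKM.

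Beyond the members, 58 further genes of the osteoclast pathway were listed by role, with earlier results of these data known, and 57 were found. Of the 54 tested, 14 passed the limits upward and 0 downward, against 6.01% and 0.334% of all genes tested. TREM2, OSCAR, TM4SF19 and ADAM8, 4 of the 14, entered the test only through the steatosis pools, since all their initial pools were under 0.3 FPKM. Of the other 50, 10 rose, against 5.51% of all genes with at least 1 initial pool at that level. The median log2 fold change of all 54, with those 4 included, was 0.66 beside 0.25 for all genes tested. Of the 57 found, 37 had all steatosis pools above all initial pools, against 29.6% of all genes tested. By role, the 14 held all 4 tested costimulatory receptors and adaptors, 4 of 9 fusion and surface genes and 3 of 11 signalling genes. None of the ligands, cytokine receptors, repressors or acid secretion genes was called, and differences between these small roles were not tested.

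**Figure D4:**
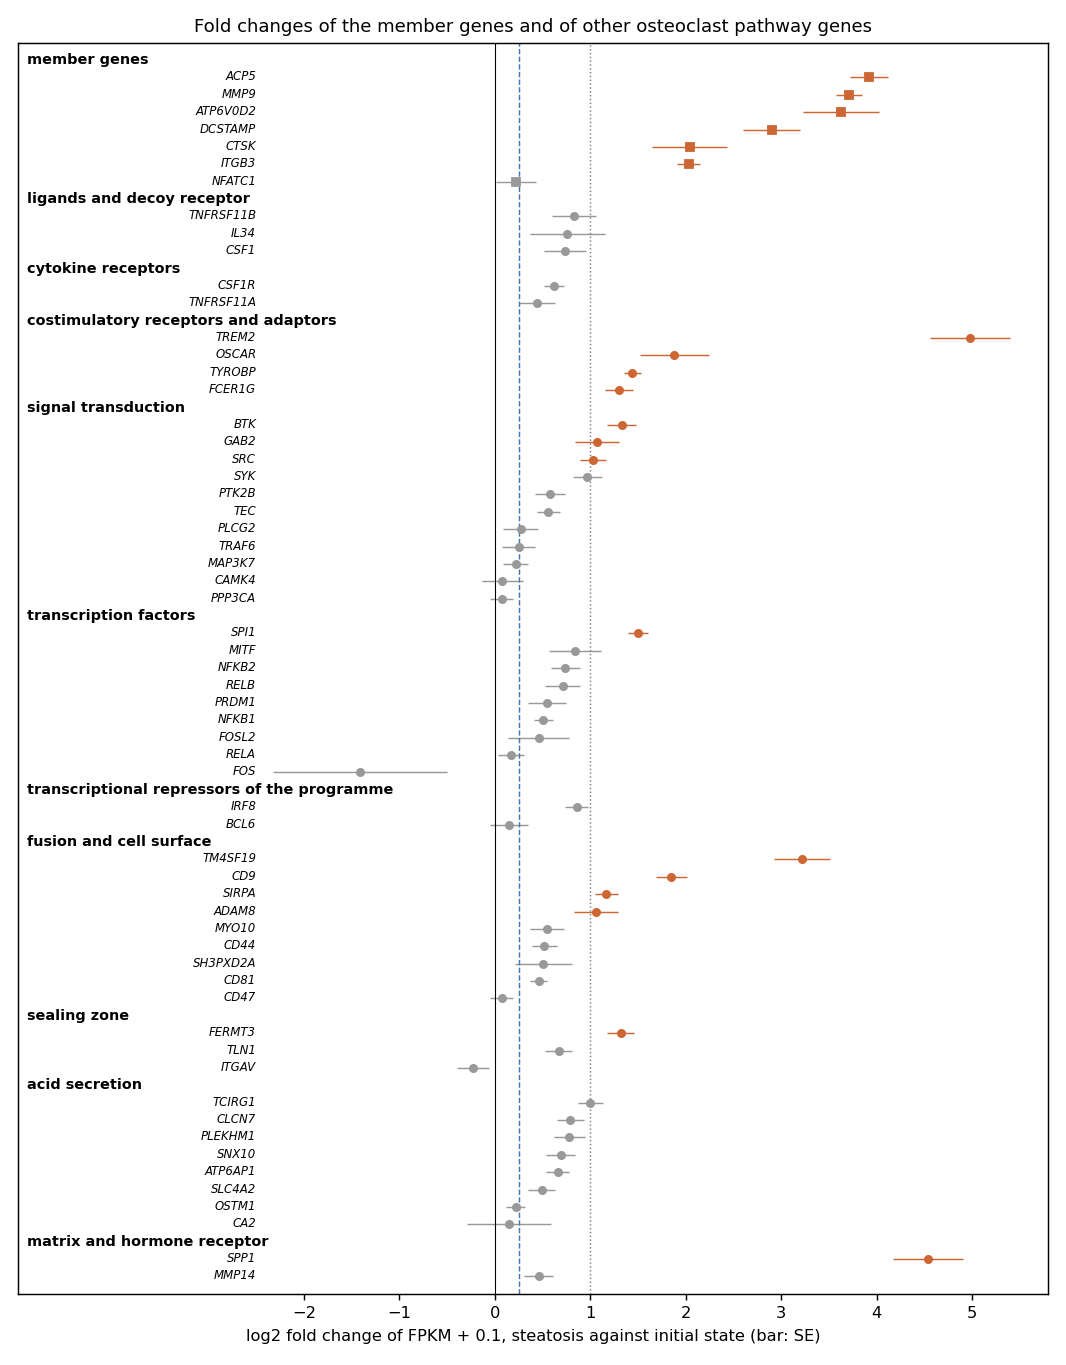
log2 fold change of FPKM + 0.1, steatosis against initial state (horizontal axis), with its SE for the 7 tested members (squares, description only) and the tested pathway genes (circles, 1 gene not shown) grouped by role; orange marks genes past the limits, the dotted line the fold limit of 1 and the blue dashed line the median of all genes at 0.25. TREM2, SPP1 and TM4SF19 lay farthest right among the pathway genes at this pseudocount, and the ligands and cytokine receptors lay between 0.44 and 0.83.

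None of the cytokines and receptors tested at the top of the pathway passed, and TNFSF11 was too low to test. TNFSF11, which encodes RANKL, was near 0 in both groups, with 0.08, 0.02, 0.05 and 0 FPKM before the diet and 0.02, 0.17, 0.02 and 0 FPKM after it, about 6 and 9 fragments in all. Its receptor RANK, TNFRSF11A, was at 0.565 ± 0.0915 and 0.805 ± 0.14 FPKM (SD, n = 4) a difference of 0.44 on the log2 scale (adjusted p 0.101, limma). The decoy receptor osteoprotegerin, TNFRSF11B, was at 0.778 ± 0.173 and 1.48 ± 0.462 FPKM (SD, n = 4), a difference of 0.83 (adjusted p 0.0252). IL34, a second ligand of CSF1R, had 0.76 (adjusted p 0.167), and CSF1R itself 0.62 (adjusted p 0.0018), under the fold limit.

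All 4 costimulatory receptors and adaptors tested were called. TREM2, a lipid-sensing receptor that signals through the adaptor TYROBP (DAP12), was at 0.12, 0.29, 0 and 0 FPKM before the diet and at 5.28, 5.71, 6.54 and 4.01 FPKM after it. The fitted difference of 4.98 on the log2 scale (SE 0.42) was set by the pseudocount, being 2.53 with a pseudocount of 1 and 6.90 with one of 0.01. TREM2 passed the filter only through steatosis, but it was called without the filter too (adjusted p 0.000218, limma). OSCAR, a collagen receptor that signals through FCER1G, had a fitted difference of 1.88 (SE 0.36), and it too passed the filter only through steatosis. It was called without the filter (adjusted p 0.00495, limma), but it stayed under 1 FPKM in every pool and was no longer called with pseudocounts of 1 or 0.01, without initial pool 3 or without any 1 of the 4 steatosis pools. The 2 adaptors, named with the other called genes after their values were seen, rose by 1.44 for TYROBP and 1.30 for FCER1G, with adjusted p values of 1.55e-05 and 0.000316. SIGLEC15, another receptor of this kind, was too low to test, with at most 0.01 FPKM in the initial pools and 0.05 to 0.2 FPKM in the steatosis pools.

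Among signalling genes the kinase BTK rose by 1.33 (adjusted p 0.000334, limma), the scaffold GAB2 by 1.07 (adjusted p 0.00751) and the kinase SRC, needed for the ruffled border, by 1.03 (adjusted p 0.000905). The GAB2 call was weak, since it was not called with pools blocked by number (adjusted p 0.0131) and was lost without initial pool 2, 3 or 4 or any 1 of the steatosis pools. SRC was not called without initial pool 4 or without steatosis pool 4, where its log2 fold changes were 0.93 and 1.0. Of the transcription factors 1 of 9 passed, SPI1 (PU.1), a master factor of the myeloid lineage, with 16.1 ± 1.75 and 45.6 ± 2.11 FPKM (SD, n = 4) and a log2 fold change of 1.50 (adjusted p 1.74e-05). FOS had a log2 fold change of -1.41 without passing (adjusted p 0.266), with 117.16 FPKM in initial pool 1 and 4.27 to 13.42 FPKM in the other initial pools. Without initial pool 1 the log2 fold change of FOS was -0.44. Of the repressors, IRF8 had 0.86 (adjusted p 0.000923), under the fold limit.

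The surface genes of fusion were led by TM4SF19, a tetraspan membrane protein, with 0.08, 0.21, 0.05 and 0.19 FPKM before the diet and 1.53, 2.4, 2.43 and 1.68 FPKM after it. The fitted difference was 3.22 on the log2 scale (SE 0.29), but 1.40 with a pseudocount of 1 and 3.99 with one of 0.01. TM4SF19 passed the filter only through steatosis and was called without the filter too (adjusted p 0.000249, limma). CD9, a tetraspanin, rose by 1.85 (adjusted p 8.38e-05, limma), and SIRPA, the receptor for CD47, by 1.17 (adjusted p 0.000191). ADAM8, a membrane metalloprotease, had a fitted difference of 1.06 with an adjusted p of 0.0092, close to the limit. It passed the filter only through steatosis, and was called neither with a pseudocount of 1 or 0.01 nor with pools blocked by number (adjusted p 0.0206) or in any of the 8 fits without 1 library. At the sealing zone FERMT3 (kindlin-3), an activator of β integrins, rose by 1.32 (adjusted p 0.000189), and talin, TLN1, had 0.67 (adjusted p 0.00684), under the fold limit.

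None of 8 acid secretion genes passed the fold limit. Their log2 fold changes ran from 0.15 to 1.0 with a median of 0.67, beside 0.25 for all genes tested. In 7 of 8 every steatosis pool lay above every initial pool, against 29.6% of all genes tested. After TCIRG1, the chloride-proton exchanger CLCN7 was highest with 0.79 (adjusted p 0.00317, limma). SPP1, which encodes osteopontin, a phosphoprotein of bone matrix that binds αvβ3, was at 4.68, 9.64, 4.16 and 6.01 FPKM before the diet and at 74.38, 226.52, 201.44 and 103.63 FPKM after it. It rose by 4.54 on the log2 scale (SE 0.37, adjusted p 5.60e-05), and pools 2 and 3 were again the highest. The collagenase MMP14 had 0.46 (adjusted p 0.0463), and CALCR, the calcitonin receptor of mature osteoclasts, was at 0 in 6 libraries and at 0.03 FPKM, about 1 fragment, in steatosis pools 1 and 3.

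The genes nearest to each member were taken from 12032 named genes by the root mean square distance of log2 levels centred over the 8 libraries. Nearest to ACP5 were MMP9 at 0.25, CPM (carboxypeptidase M) at 0.27 and AMBN (ameloblastin) at 0.34. Nearest to MMP9 were AMBN at 0.24, ACP5 at 0.25 and PAQR7 at 0.30. So these 2 members lay among each other's 3 nearest genes. ATP6V0D2 was nearest to SMPDL3A, a lysosomal phosphodiesterase, at 0.38, ACP5 at 0.42 and CPM at 0.43. DCSTAMP was nearest to the chemokine receptor CCR1 at 0.30, cathepsin D (CTSD) at 0.33 and PADI2 at 0.33. The distances of ATP6V0D2 and DCSTAMP were set by the pseudocount of 0.1, since their initial pools were at most at 0.05 FPKM. Their neighbours with other pseudocounts were not computed.

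Among the genes nearest to ITGB3 were CSTB (cystatin B) at 0.11 and SRGN (serglycin) at 0.13. CTSK was nearest to SLC3A1 at 0.29, FCGR1A at 0.39 and CYP7A1, the rate-limiting enzyme of bile acid synthesis, at 0.41. NFATC1 was nearest to MEX3C, KPNA1 and DCUN1D2, each at 0.10, in a range where most genes differ little between libraries. These distances describe 8 libraries that share the same group difference and carry no test.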

How the data were processed

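Poly-A RNA of 8 liver pools was read as paired ends on a DNBseq platform. The authors mapped filtered reads to the Sus scrofa 11.1 genome and to transcripts, with HISAT2 2.0.4, Bowtie2 2.2.5 and RSEM 1.2.12 in the submitters' processing notes. The FPKM deposited by the authors (RSEM estimates, rounded to 2 decimals) were used as they stood. The deposited table also gives transcript lengths in bases. The authors' columns of fold change, p-value and false discovery rate were not used. Groups came from the labels.

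log2(FPKM + 0.1) of genes with at least 0.3 FPKM in 4 libraries was fitted by group with limma 3.58.1 (R 4.3.3, mean-variance trend, Benjamini-Hochberg adjustment over 13175 genes) after a test on simulated data. FPKM is relative to all transcripts in a library, so a few abundant transcripts can shift it. Fragments were estimated from FPKM steps of single-transcript genes of 600 to 1500 bases under 0.25 FPKM, of which 89.0 to 94.8% came out whole within 0.15. Counting intervals are exact (scipy 1.17.1). Coordinates are from RefSeq, Sscrofa11.1.

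The members, the lists and the tests were chosen with earlier results of these data known. Named were all members, at most 2 genes a role with the largest fold changes plus TNFSF11, TNFRSF11A, TNFRSF11B and CALCR, the most abundant markers and those at 0, ATP6V0D1 and TCIRG1, and the 3 nearest genes to each member (1 pathway gene and 1 nearest gene are not reported here); other called genes, ITGAV, SIGLEC15, MPO, ELANE, COL1A1 and the second macrosialin locus were named after their values were seen. CA2, PF4 and TF were matched through the table's gene descriptions. GSN and IBSP were not analysed here. Pools with the same number deviated together from their group means (r = 0.16, 0.35, 0.32 and 0.25 for pools 1 to 4), and the study's methods name the same animals at both times. A paired fit with a block for each pool number was tried. Further alternatives were pseudocounts of 1 and 0.01, no filter, a filter of 1 FPKM, 2 scalings and leaving out each library. p-values measure the spread between pools.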

Additional observations from a re-analysis of the deposited data

Results flagged for a closer look

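In 60 groups of 4 pools, for the members and the named pathway genes, the highest or lowest pool was compared with the other 3 by Dixon's ratio, which chance alone exceeds in about 1 of 20 groups, and 5 exceeded it. DCSTAMP was at 0.03 FPKM in initial pool 4 and at 0 in the other initial pools. NFATC1 was at 3.03 FPKM in steatosis pool 1, the lowest of that group by a wide gap. FOS was at 117.16 FPKM in initial pool 1, the pool with the muscle and stomach transcripts. TCIRG1 was at 3.84 FPKM in initial pool 4, above the other initial pools. TNFSF11 was at 0.17 FPKM in steatosis pool 2, about 7 of the 9 fragments in that group.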

How the results depend on the processing

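Among the 7 tested members 6 were called, and 4 to 7 over the alternatives: 4 with a filter of 1 FPKM, which DCSTAMP and ATP6V0D2 cannot pass, 7 without a filter, where OCSTAMP was added, and 5 with a pseudocount of 1, without DCSTAMP. With a median ratio scaling 5 were called, without CTSK. Leaving out single libraries gave 5 to 6, where CTSK alone was lost without initial pool 1, 2 or 3 or steatosis pool 1, 3 or 4. Without initial pool 1, which held muscle and stomach transcripts, 5 members and 14 pathway genes were called. No log2 fold change of a called gene changed sign. The pathway count of 14 became 9 with the median ratio scaling, where ADAM8, OSCAR, GAB2, SIRPA and SRC were lost and the median of all genes moved from 0.25 to -0.01, and 11 to 14 without single libraries. It was 10 with a pseudocount of 1, without ADAM8, GAB2, OSCAR and SRC, and 12 with a filter of 1 FPKM, without ADAM8 and OSCAR. With pools blocked by number (the replicate block) 6 members, 12 pathway genes and the same 7 markers were called, and of the calls given GAB2 and ADAM8 alone were lost. The 1 marker that fell, MS4A1, was lost with a pseudocount of 1, without a filter and with a filter of 1 FPKM, each leaving 0. The count was 2 with a pseudocount of 0.01 and with the median ratio, and 0 to 3 without single libraries, with ACTA1 and JCHAIN added without initial pool 1. MS4A1 was lost without any other single library, where 0 were left, except 1, ACTA1, without initial pool 2. CD4 and LRAT were lost with the median ratio, LRAT also with a pseudocount of 1. The causes were not tested. DCSTAMP, OCSTAMP and ATP6V0D2 rested on at most 6 fragments over the initial pools, and pools of 2 pigs give no spread between animals.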
